A study of Homo sapiens with 27 samples.

Results

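A set of 8 genes that are recurrently mutated or altered in clear cell renal cell carcinoma was followed across the 9 cell populations of the series: PBRM1, BAP1, SETD2, TSC1, TSC2, MTOR, PIK3CA and CDKN2A. They were taken as the identifiers in the deposited count table that map to those symbols, which gave 8 genes of 57773 identifiers, and each was compared with its chromosomal neighbours. Of the 8, 7 reached the minimum of 120 reads summed over all libraries and entered the tests with 17016 genes in all. CDKN2A held 4 reads in the whole series and did not.

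PBRM1, BAP1 and SETD2 are chromatin regulators. PBRM1 is the bromodomain subunit of the PBAF form of the SWI/SNF remodelling complex, BAP1 is the deubiquitinase that removes monoubiquitin from histone H2A, and SETD2 is the methyltransferase that trimethylates histone H3 at lysine 36. All of them lie on the short arm of chromosome 3, an arm commonly lost in this tumour type. TSC1 and TSC2 form the complex that restrains mTORC1 signalling, MTOR is its kinase, PIK3CA encodes the catalytic p110-alpha subunit of PI3-kinase upstream of AKT and mTOR, and CDKN2A encodes the cell cycle inhibitors p16 and p14ARF.

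RNA of 786-O cells, an established clear cell renal cell carcinoma line, was sequenced in 27 libraries, 3 for each of 9 populations. All populations carried lentiviral Cas9 with guide RNA and drug resistance. The control population held a control guide (sgCtrl). There were 2 populations with a guide against KDM5C (sgKDM5C_4 and sgKDM5C_5), 2 with a guide against KDM5D (sgKDM5D_2 and sgKDM5D_4), and 4 with each combination of them (sgKDM5C_4_sgKDM5D_2, sgKDM5C_4_sgKDM5D_4, sgKDM5C_5_sgKDM5D_2 and sgKDM5C_5_sgKDM5D_4). KDM5C and KDM5D are the X-linked and Y-linked members of a family of histone H3 lysine 4 demethylases. Each single guide and each guide pair was represented by 1 transduced population, and each guide therefore occurred in 3 populations, alone and in 2 combinations. The 3 libraries of a population were not stated to come from separate cultures. The p-values therefore measure the spread between these samples, which may be technical.

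Libraries held 20172482 to 43383929 counted reads (median 26290323). KDM5C was at 124 ± 7.28 CPM (mean ± SD, n = 3; CPM, reads of the gene scaled to a common library total) in sgCtrl and at means of 33.2 to 43.6 CPM in the 6 populations with a KDM5C guide. KDM5D was at 12.8 ± 1.58 CPM in sgCtrl and higher in all 8 other populations (log2 fold change 0.64 to 1.80), so its RNA level did not check the sgKDM5D labels. The renal epithelial markers PAX8 (254 to 392 CPM) and KRT8 (490 to 1040 CPM) were expressed in all libraries, whereas HBB had no read and CD3E, PTPRC and CDH5 did not exceed 0.590 CPM. The 4 libraries listed last in the count table (sgCtrl replicate 2, sgKDM5C_5 replicate 2, sgKDM5C_4_sgKDM5D_2 replicate 1 and sgKDM5C_4_sgKDM5D_4 replicate 3) stood apart from the other 23 on the first principal component within populations, at 10.9 to 20.4 against -11.4 to 6.38. Calls that were lost or gained without these 4 libraries are given with the genes or in the closing section.

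The drivers differed widely in level. Per kilobase of the canonical transcript, sgCtrl cells had BAP1 at 30.6 CPM per kb, MTOR at 16.4, SETD2 at 9.79, TSC2 at 9.73, PBRM1 at 8.87, TSC1 at 5.79 and PIK3CA at 2.83 CPM per kb, and no read of CDKN2A. On the GRCh37 build, PBRM1 (ENSG00000163939) lies on the minus strand at chr3:52579368-52719933, BAP1 (ENSG00000163930) on the minus strand at chr3:52435024-52444024 and SETD2 (ENSG00000181555) on the minus strand at chr3:47057918-47205603. PBRM1 and BAP1 are 0.144 Mb apart and BAP1 and SETD2 5.38 Mb. TSC1 (ENSG00000165699) is on the minus strand at chr9:135766735-135822261, TSC2 (ENSG00000103197) on the plus strand at chr16:2097968-2139492, MTOR (ENSG00000198793) on the minus strand at chr1:11166592-11322613 and PIK3CA (ENSG00000121879) on the plus strand at chr3:178865902-178957881, on the long arm. CDKN2A (ENSG00000147889) is on the minus strand at chr9:21967751-21995300.

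**Figure D1:**
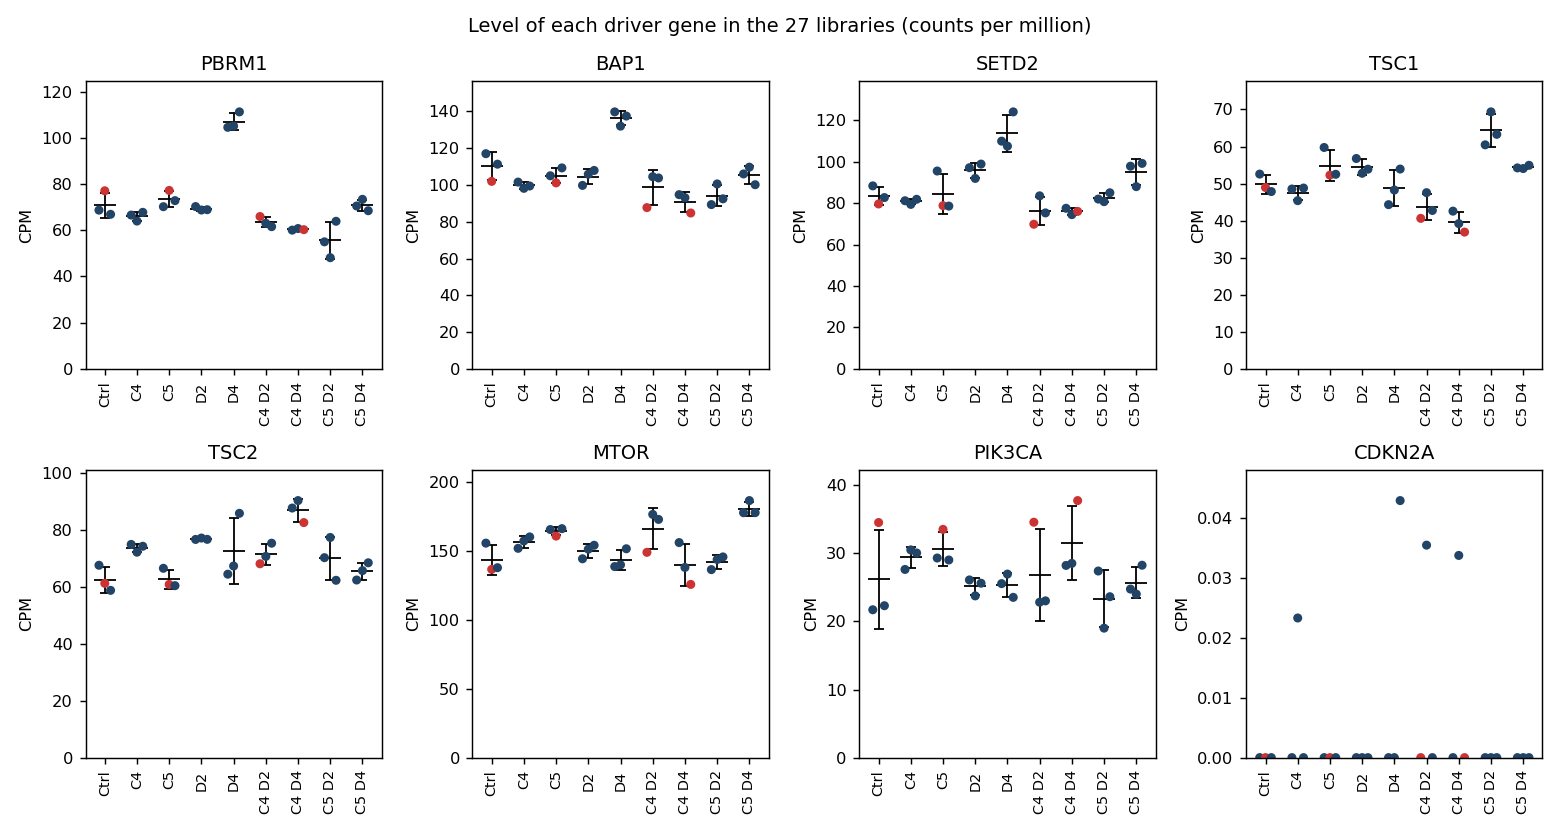
Level of each driver gene (CPM, linear axis) in each of the 27 libraries by population, where C4 stands for sgKDM5C_4, D2 for sgKDM5D_2 and so on. Points are libraries, red points the 4 libraries listed last in the count table, and dashes with bars the mean ± SD of 3 libraries (points only for CDKN2A); PBRM1, BAP1 and SETD2 reached their highest levels in sgKDM5D_4, and CDKN2A had at most 1 read in a library.

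Of the 7 measured drivers, 6 differed among the 9 populations (F test over all populations, adjusted p from 8.6e-10 for PBRM1 to 0.00035 for TSC2), against 79.8% of all tested genes. PIK3CA did not pass (adjusted p = 0.19). The differences were small: the highest population mean was 1.92 times the lowest for PBRM1, 1.63 for TSC1, 1.501 for BAP1, 1.498 for SETD2, 1.39 for TSC2, 1.35 for PIK3CA and 1.29 for MTOR. Of the 56 combinations of 7 drivers and 8 mutant populations, 15 differed from sgCtrl at an adjusted p below 0.05 (26.8%), 10 of them higher and 5 lower, where 31.1% of all combinations of tested genes and populations did. The drivers' share was close to that background, which was not matched for expression level, and with a term for the 4 libraries listed last 19 combinations passed. By the stricter criterion of an adjusted p below 0.001 and a change over 1.5-fold, 1 combination passed, PBRM1 in sgKDM5D_4 (1.79%, background 8.29%). The 3 libraries of a population did not overlap those of sgCtrl in 22 of 56 combinations (39.3%, background 40.3%). All 8 comparisons share the same 3 sgCtrl libraries.

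The calls were spread unevenly over the populations. In sgKDM5D_4, 4 of 7 drivers were upregulated and none downregulated, where 47.6% of tested genes changed (24.4% higher). In sgKDM5C_4_sgKDM5D_4, 1 driver was higher and 3 were lower, where 35.7% of tested genes changed (17.3% higher and 18.5% lower). In sgKDM5C_5_sgKDM5D_2, 1 was higher and 2 were lower, with 44.5% of tested genes changed (21.5% higher and 23% lower). In 4 populations a single driver was called, in each case higher: in sgKDM5C_4, where 24% of tested genes changed (12.3% higher), in sgKDM5D_2 with 22% (11.5% higher), in sgKDM5C_4_sgKDM5D_2 with 24.9% (13% higher) and in sgKDM5C_5_sgKDM5D_4 with 28.9% (14.5% higher). In sgKDM5C_5 no driver passed, beside 21.4% of tested genes. Among all 36 pairs of populations, where 32.6% of gene tests passed, PBRM1 differed in 19, TSC1 in 17, SETD2 in 16, BAP1 and MTOR in 13 each, TSC2 in 12 and PIK3CA in 1.

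PBRM1 had the strongest change of any driver. It was at 68.7, 77.1 and 66.9 CPM in the 3 sgCtrl libraries and at 105, 105 and 111 CPM in sgKDM5D_4. All sgKDM5D_4 libraries were above every other library of the series. PBRM1 was 1.51-fold higher there (log2 fold change 0.59, SE 0.07, adjusted p = 2.2e-07 by edgeR's quasi-likelihood test), which sits at the edge of the 1.5-fold threshold. In sgKDM5C_5_sgKDM5D_2 it was at 55.0, 48.1 and 63.9 CPM, below all sgCtrl libraries (log2 fold change -0.35, adjusted p = 0.00044). In sgKDM5C_4_sgKDM5D_4 it was at 60.0, 60.7 and 60.2 CPM, also below all sgCtrl libraries (-0.23, adjusted p = 0.016). The last call was lost without the 4 libraries listed last (-0.15, adjusted p = 0.15), and also without sgCtrl replicate 2 alone (-0.14, adjusted p = 0.14) or sgKDM5C_4_sgKDM5D_4 replicate 2 (-0.22, adjusted p = 0.05). In the order of population means, 5 of 8 neighbouring populations overlapped in PBRM1, and sgKDM5D_4 stood clear of the next.

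BAP1 was also highest in sgKDM5D_4. Its sgCtrl libraries were at 117, 102 and 111 CPM and its sgKDM5D_4 libraries at 140, 132 and 138 CPM, all above sgCtrl (log2 fold change 0.31, SE 0.07, adjusted p = 0.00064). The sgKDM5C_4_sgKDM5D_4 libraries, at 94.8, 93.1 and 84.8 CPM, were all below sgCtrl (-0.28, adjusted p = 0.0029). The sgKDM5C_5_sgKDM5D_2 libraries, at 89.4, 101 and 92.5 CPM, were also below the lowest control (-0.23, adjusted p = 0.011). That call did not pass without sgCtrl replicate 1 (-0.17, adjusted p = 0.068) or sgKDM5C_5_sgKDM5D_2 replicate 1 (-0.18, adjusted p = 0.065). In sgKDM5C_4 BAP1 passed only without the 4 libraries listed last (-0.19, adjusted p = 0.029) or with a term for them (-0.19, adjusted p = 0.008). Only sgKDM5D_4 stood clear of its neighbour in the order of BAP1 levels.

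SETD2 passed the test against sgCtrl in sgKDM5D_4 alone of the 8 populations. It was at 88.4, 79.7 and 82.7 CPM in sgCtrl and at 110, 108 and 124 CPM in sgKDM5D_4, with no overlap (log2 fold change 0.45, SE 0.08, adjusted p = 2.6e-05). The next highest populations were sgKDM5D_2, at 97.2, 92.0 and 98.9 CPM, and sgKDM5C_5_sgKDM5D_4, at 97.9, 88.0 and 99.3 CPM. sgKDM5D_2 was above all control libraries without passing the test (0.20, adjusted p = 0.062), and sgKDM5C_5_sgKDM5D_4 overlapped them. The sgKDM5D_2 difference passed in 2 of 35 alternatives, each an omission of 1 library. In the 5 other populations the mean level was 76.1 to 84.4 CPM. Among them, the sgKDM5C_4_sgKDM5D_4 libraries (74.5 to 77.6 CPM) were all below sgCtrl without passing the test (-0.14, adjusted p = 0.18).

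The genes around the 3p drivers were higher in sgKDM5D_4 too. Of the 113 other tested genes between SETD2 and PBRM1, a stretch of 5.66 Mb from end to end, 62 were higher and 5 lower in sgKDM5D_4 (median log2 fold change 0.34), where the median of all tested genes was -0.00. In sgKDM5C_4_sgKDM5D_4, 9 were higher and 42 lower (median -0.17). The other populations had medians from -0.06 to 0.09, among them sgKDM5C_5_sgKDM5D_2, where 26 were higher and 36 lower (median 0.02). Such regional shifts were common over the genome in sgKDM5D_4. Over the tested genes with a position, the median of the 50 nearest genes had an SD of 0.270 there, it exceeded 0.2 in size for 43.3% of windows, and for 12.9% it was at or above that of BAP1. Along the arm, toward lower coordinates from BAP1, the median in sgKDM5D_4 was 0.35 at 1 to 5 Mb (85 genes), 0.44 at 5 to 10 Mb (46 genes), 0.21 at 10 to 20 Mb (53 genes), 0.23 at 20 to 40 Mb (69 genes) and 0.41 at 40 to 80 Mb (54 genes). Toward higher coordinates it was 0.12 at 10 to 20 Mb (27 genes), and it was -0.06 at 40 to 80 Mb (205 genes) and -0.00 farther out (297 genes), where PIK3CA lies. DNA copy number was not measured in these libraries, and its part in the result was not tested.

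**Figure D2:**
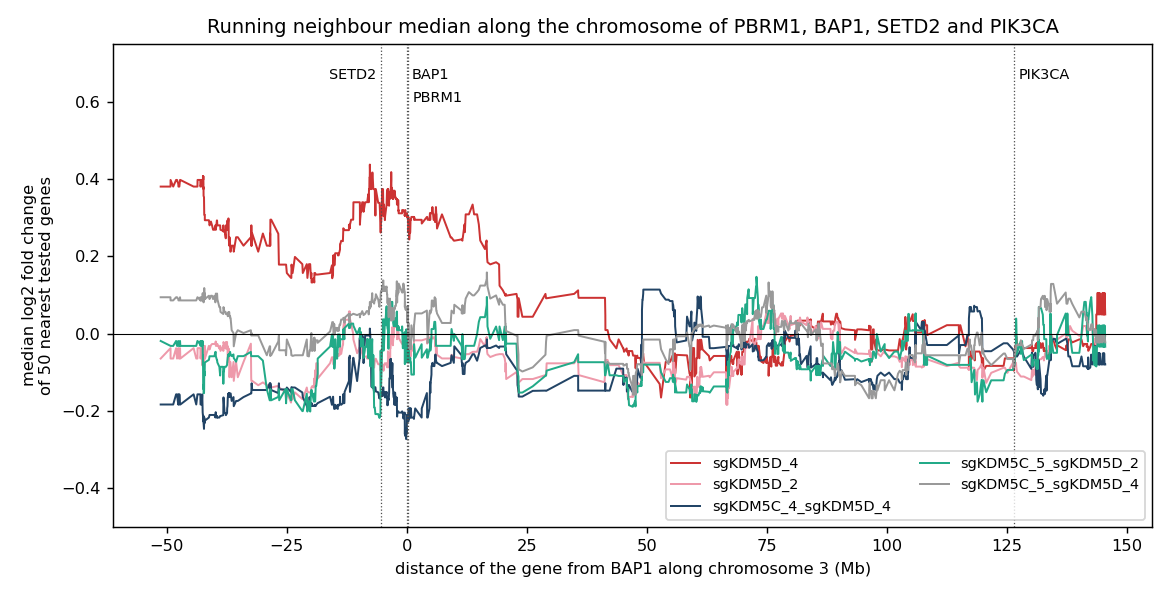
Running median of the log2 fold change against sgCtrl of neighbouring tested genes along chromosome 3, by distance from BAP1 in Mb, for 5 populations; dotted lines mark SETD2, PBRM1 and PIK3CA. sgKDM5D_4 lies above 0 on the side that holds SETD2 and close to 0 toward PIK3CA, and sgKDM5C_4_sgKDM5D_4 lies below 0 around BAP1.

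Against the median of its 50 nearest tested genes, PBRM1 remained higher in sgKDM5D_4 (neighbours' median 0.30, difference 0.29, SE 0.07, adjusted p = 0.0025). Of those 50 neighbours, 37 had a smaller log2 fold change than PBRM1. BAP1 matched its neighbours there (0.31 against 0.31, adjusted p = 0.99), and SETD2 exceeded its neighbours' median of 0.29 by 0.16 without passing the test (adjusted p = 0.11), but passed with no filter on low counts (0.37, adjusted p = 0.00025). PBRM1 and BAP1 lie within each other's windows. In sgKDM5C_4_sgKDM5D_4 the neighbours' median was -0.21 for both PBRM1 and BAP1, and neither differed from it beyond the error (adjusted p = 0.86 and 0.51). In sgKDM5C_5_sgKDM5D_2, where the neighbours' median was near 0, PBRM1 was below it by a log2 fold change of -0.32 (adjusted p = 0.001), lower than all but 6 of its 50 neighbours. This call was lost when the neighbours were limited to a mean log2 CPM over 2 (-0.14, adjusted p = 0.13). BAP1 was below it by -0.20 (adjusted p = 0.022) in that population, a call that did not pass with the 20 nearest genes (-0.05, adjusted p = 0.57), with neighbours over that level (-0.03, adjusted p = 0.78) or with edgeR's own expression filter (-0.16, adjusted p = 0.056), nor without sgCtrl replicate 1 or 3 (adjusted p = 0.076 and 0.058) or sgKDM5C_5_sgKDM5D_2 replicate 1 or 3 (0.12 and 0.22). SETD2 was above 41 of its 50 neighbours in sgKDM5D_2, where they had a median of -0.09 (difference 0.29, adjusted p = 0.0098). That call was lost with no filter on low counts (0.19, adjusted p = 0.22).

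The genes next to PBRM1 did not all move with it. GNL3, a nucleolar GTP-binding protein whose gene overlaps the PBRM1 start on the opposite strand, was higher in sgKDM5D_4 (log2 fold change 0.39, adjusted p = 0.00037) and lower in sgKDM5C_4_sgKDM5D_4 (-0.33, adjusted p = 0.003). UQCC5, which overlaps the other end of PBRM1 on the opposite strand, was lower in sgKDM5D_4 (-0.39, adjusted p = 0.01). That fall was not particular to sgKDM5D_4. UQCC5 was also lower in sgKDM5C_4_sgKDM5D_4 (-0.77, adjusted p = 1.8e-05) and sgKDM5C_5_sgKDM5D_2 (-0.39, adjusted p = 0.011), where PBRM1 was lower too. In sgKDM5C_4 (-0.41), sgKDM5D_2 (-0.33) and sgKDM5C_4_sgKDM5D_2 (-0.33) it was lower as well (adjusted p from 0.014 to 0.049). The 2 overlapping genes had 205% and 17.2% of the reads of PBRM1, and whether the counting used strand is not given in the sources used here, so reads in the shared stretches cannot be assigned. Next to SETD2, CCDC12 rose by a log2 fold change of 0.74 in sgKDM5D_4 (adjusted p = 4.2e-07), more than SETD2, and KIF9 was at -0.09 (adjusted p = 0.67). Of the genes closest to BAP1, NISCH was higher (0.31, adjusted p = 0.02) and DNAH1 lower (-0.69, adjusted p = 0.015).

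The KDM5D guides did not give the same 3p levels. The direct contrast of sgKDM5D_2 with sgKDM5D_4 had PBRM1 lower in sgKDM5D_2 by a log2 fold change of -0.63 (SE 0.07, adjusted p = 7.8e-08), BAP1 by -0.38 (SE 0.07, adjusted p = 4.9e-05) and SETD2 by -0.25 (SE 0.08, adjusted p = 0.0089). PBRM1 and BAP1 libraries of sgKDM5D_2, at 70.2, 68.7 and 68.9 CPM and at 99.8, 106 and 108 CPM, were all below those of sgKDM5D_4. These 3 of 7 drivers stand beside 51.8% of all tested genes that differed between these guides. Without sgKDM5D_4 replicate 3 the SETD2 difference did not pass (-0.18, adjusted p = 0.054), while TSC1 (0.23, adjusted p = 0.022) and TSC2 (0.22, adjusted p = 0.027) did. Between sgKDM5C_4 and sgKDM5C_5 no driver passed (0 of 7, background 16.2%), the lowest adjusted p being 0.062 for TSC2 at a log2 difference of 0.24. That TSC2 difference passed in 8 of 35 alternatives, among them DESeq2 and the fit of only the 2 populations compared.

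The combined populations that carry sgKDM5D_4 had lower 3p drivers than sgKDM5D_4 itself. In sgKDM5C_4_sgKDM5D_4 against sgKDM5D_4, PBRM1 differed by -0.83 (adjusted p = 5.3e-10), BAP1 by -0.59 (adjusted p = 8.5e-08) and SETD2 by -0.58 (adjusted p = 4.1e-07) on the log2 scale. TSC1 was also lower (-0.30, adjusted p = 0.002) and TSC2 higher (0.26, adjusted p = 0.013), so that 5 of 7 drivers differed (background 55.4%). In sgKDM5C_5_sgKDM5D_4 against sgKDM5D_4, PBRM1 (-0.60, adjusted p = 1.5e-07), BAP1 (-0.37, adjusted p = 6.4e-05) and SETD2 (-0.26, adjusted p = 0.0057) were lower and MTOR was higher (0.33, adjusted p = 0.00036), 4 of 7 drivers beside a background of 52.8%. Both contrasts share the sgKDM5D_4 libraries. In sgKDM5C_5_sgKDM5D_2, PBRM1 was lower than in sgKDM5C_5 (-0.40, adjusted p = 0.00014) and in sgKDM5D_2 (-0.32, adjusted p = 0.0014), with 3 of 7 drivers called in each contrast (39.2% and 37.3%). sgKDM5C_4_sgKDM5D_2 did not differ in any driver from sgKDM5C_4 (0 of 7, background 1.05%), and against sgKDM5D_2 it had lower SETD2 (-0.33, adjusted p = 0.0016) and TSC1 (-0.32, adjusted p = 0.0029), 2 of 7 (27.8%). Against sgKDM5C_4, sgKDM5C_4_sgKDM5D_4 had lower TSC1 (-0.27, adjusted p = 0.02), 1 of 7 (16.6%), and no driver passed between sgKDM5C_5_sgKDM5D_4 and sgKDM5C_5 (0 of 7, background 6.92%).

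Averaged over guides, no driver passed for the sgKDM5C populations (0 of 7, background 24.5%). The mean of the sgKDM5D populations was higher than sgCtrl for PBRM1 (0.28, adjusted p = 0.0015), SETD2 (0.32, adjusted p = 0.00051) and TSC2 (0.26, adjusted p = 0.011), 3 of 7 (background 32.8%). For PBRM1 that mean combines 0.59 in sgKDM5D_4 with -0.03 in sgKDM5D_2. Over the 4 combined populations PBRM1 (-0.19, adjusted p = 0.014) and BAP1 (-0.18, adjusted p = 0.011) were lower and TSC2 was higher (0.22, adjusted p = 0.013), 3 of 7 (background 36.2%). Taken one by one, these 4 combined populations had PBRM1 at -0.35 to -0.00, BAP1 at -0.28 to -0.06 and TSC2 at 0.07 to 0.47. The p-values of these averages use the spread between libraries, so the spread between guides or populations is not in them.

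TSC1 changed in opposite directions in combined populations that share no guide. Its sgCtrl libraries were at 52.6, 48.9 and 47.8 CPM. In sgKDM5C_5_sgKDM5D_2 they were at 60.5, 69.3 and 63.3 CPM, above every control and above all other populations (log2 fold change 0.37, SE 0.08, adjusted p = 0.00041). In sgKDM5C_4_sgKDM5D_4 they were at 42.6, 39.2 and 36.9 CPM, below every control (-0.33, SE 0.08, adjusted p = 0.0017). The neighbours of TSC1 were also lower in sgKDM5C_4_sgKDM5D_4, with a median of -0.34 and 29 of 50 genes called lower, and TSC1 was level with them (difference 0.01, adjusted p = 0.97). There the medians were -0.41 at 1 to 5 Mb on the side of lower coordinates (71 genes) and -0.39 on the other side (83 genes). On the side of lower coordinates the median was still -0.25 at 40 to 80 Mb (110 genes) and was 0.05 farther out (174 genes). In sgKDM5C_5_sgKDM5D_2 the neighbours had a median of -0.10, so that TSC1 exceeded that median by 0.47 (SE 0.08, adjusted p = 2.8e-05). It was above 39 of the 50 neighbours.

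TSC2 was called higher in 4 populations, the most of any driver. It was at 67.5, 61.1 and 58.7 CPM in sgCtrl and at 87.5, 90.2 and 82.4 CPM in sgKDM5C_4_sgKDM5D_4, well above all controls (log2 fold change 0.47, SE 0.09, adjusted p = 1e-04). In sgKDM5D_2 it was at 76.5, 77.0 and 76.6 CPM, again without overlap (0.30, adjusted p = 0.015), a call lost without sgCtrl replicate 3 (0.25, adjusted p = 0.075). sgKDM5C_4 libraries, at 74.8, 72.1 and 74.1 CPM, were also all above sgCtrl, with a difference at the threshold (0.24, adjusted p = 0.046). In sgKDM5D_4 the libraries were at 64.3, 67.2 and 85.7 CPM, of which only the third was above the control range, and the difference of 0.21 (adjusted p = 0.045) fell to 0.07 without that library (adjusted p = 0.52). The last 2 calls were lost under most alternatives.

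The neighbourhood of TSC2 on chromosome 16 was shifted in several populations. The median log2 fold change of its 50 nearest genes, which span 1.09 Mb, was 0.25 in sgKDM5C_5, 0.24 in sgKDM5D_2, 0.24 in sgKDM5C_4_sgKDM5D_4 and 0.26 in sgKDM5C_5_sgKDM5D_4, and it was -0.18 in sgKDM5D_4. TSC2 itself was at 0.00 in sgKDM5C_5, below its neighbours by -0.25 without passing the test (adjusted p = 0.052). In sgKDM5D_4, where 19 neighbours were lower and 1 higher, TSC2 was above them by 0.39 (SE 0.09, adjusted p = 0.00069), more than 43 of the 50. In sgKDM5C_4_sgKDM5D_4 it exceeded 34 of the 50, and their median by 0.23 (adjusted p = 0.046), a call that was lost under most alternatives. The higher levels in sgKDM5D_2 and sgKDM5C_4 were not distinguishable from those of the neighbours (adjusted p = 0.69 and 0.25). PKD1, the polycystin gene that overlaps the end of TSC2 on the opposite strand and has 117% of its reads, was higher in sgKDM5C_4_sgKDM5D_4 (0.46, adjusted p = 0.0085) and at -0.17 in sgKDM5D_4 (adjusted p = 0.3). NHERF2, a PDZ scaffold protein whose gene lies close to the start of TSC2, had a mean of 2.14 CPM in sgCtrl. It was higher in sgKDM5D_4 by a log2 fold change of 4.43 (SE 0.16, adjusted p = 5.8e-18). It was also higher in sgKDM5C_4_sgKDM5D_4 (1.60, adjusted p = 1.9e-08), sgKDM5C_4 (0.77, adjusted p = 0.0016) and sgKDM5C_4_sgKDM5D_2 (0.55, adjusted p = 0.022).

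MTOR was higher in 2 populations and lower in none. It was at 155, 136 and 138 CPM in sgCtrl and at 178, 186 and 178 CPM in sgKDM5C_5_sgKDM5D_4, above every control (log2 fold change 0.33, SE 0.07, adjusted p = 0.0009). In sgKDM5C_4_sgKDM5D_2 it was at 149, 176 and 173 CPM, of which replicate 1 fell within the control range (0.21, adjusted p = 0.032). That call was lost on leaving out sgCtrl replicate 2 (adjusted p = 0.091) or 3 (0.12), or sgKDM5C_4_sgKDM5D_2 replicate 2 (0.15) or 3 (0.11). MTOR was above the median of its neighbours in both populations, by 0.25 (adjusted p = 0.011) and 0.24 (adjusted p = 0.02). It exceeded 40 and 35 of the 50 neighbours. The second call was lost without sgCtrl replicate 3 (adjusted p = 0.068), with no filter on low counts (0.18, adjusted p = 0.19) or with the 100 nearest genes (0.17, adjusted p = 0.091). In sgKDM5C_4_sgKDM5D_4 MTOR was at -0.04 against sgCtrl, above 34 of its 50 neighbours. Their median was -0.27, with 24 of 50 called lower. The difference of 0.24 (adjusted p = 0.013) was lost without sgCtrl replicate 2 (adjusted p = 0.059) or 3 (0.12), or sgKDM5C_4_sgKDM5D_4 replicate 1 (0.065). It was also lost with no filter on low counts (0.09, adjusted p = 0.69) and with the 100 nearest genes (0.18, adjusted p = 0.067). In sgKDM5C_5 MTOR was just short of the threshold against sgCtrl (0.20, adjusted p = 0.056) and passed with DESeq2. It was above its neighbours there only without the 4 libraries listed last (0.21, adjusted p = 0.048) or with a term for them (0.17, adjusted p = 0.038). FBXO44, an F-box protein whose gene is among the 4 tested genes nearest to MTOR, was lower in all 6 populations with a KDM5C guide, from -1.42 in sgKDM5C_4 to -5.62 in sgKDM5C_5_sgKDM5D_4 (adjusted p from 9.6e-06 to 1.4e-12), and did not pass in sgKDM5D_2 (-0.31, adjusted p = 0.26) or sgKDM5D_4 (-0.09, adjusted p = 0.74).

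PIK3CA passed in no population against sgCtrl. Its log2 fold changes were -0.17 to 0.26 with an SE of 0.16, and all neighbouring populations in the order of its levels overlapped. The sgCtrl libraries were at 21.7, 34.5 and 22.3 CPM, and the high value was that of a library listed last. In each of the 4 populations with such a library, that library had 1.15 to 1.57 times the mean of the other 2 for PIK3CA, and 0.84 to 1.14 times for the other drivers. Without those 4 libraries PIK3CA was higher in sgKDM5C_4 (0.43, adjusted p = 0.0038), sgKDM5C_5 (0.40, adjusted p = 0.015) and sgKDM5C_4_sgKDM5D_4 (0.38, adjusted p = 0.012). Without sgCtrl replicate 2 alone it passed in sgKDM5C_5 (0.48, adjusted p = 0.031) and sgKDM5C_4_sgKDM5D_4 (0.54, adjusted p = 0.0091). With a term for the 4 libraries it was higher in sgKDM5C_4 (0.35, adjusted p = 0.01) and sgKDM5C_4_sgKDM5D_4 (0.28, adjusted p = 0.024). Whether the level of PIK3CA differs from sgCtrl thus depends on how these libraries are treated, and the cause of their shift was not tested.

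**Figure D3:**
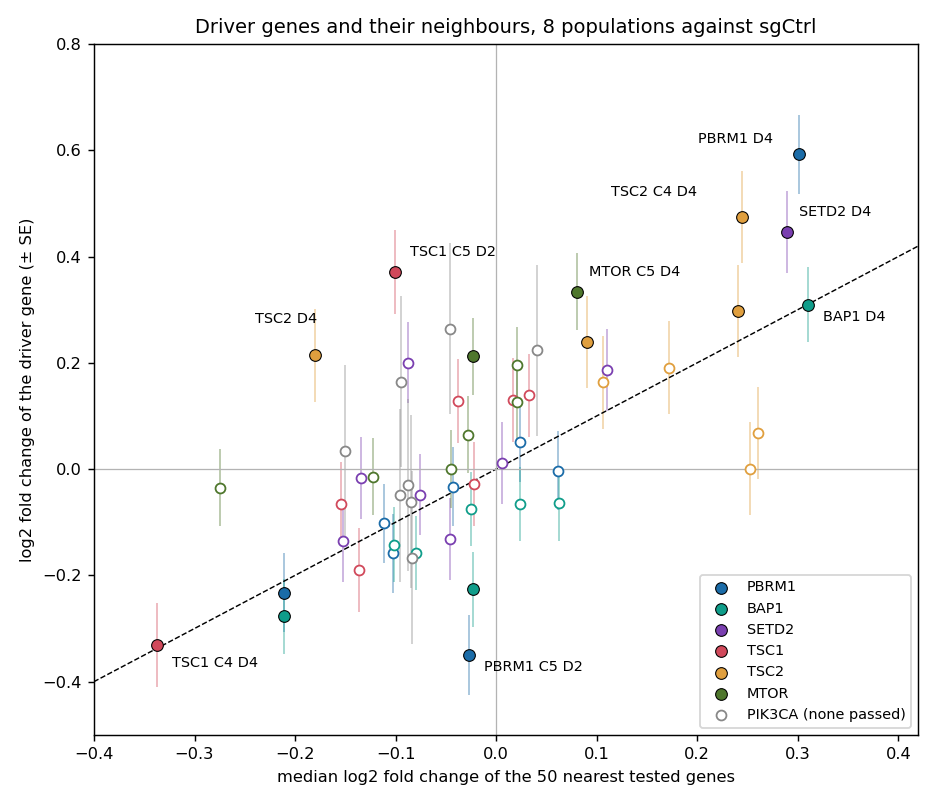
Log2 fold change of each driver against sgCtrl (points, with SE) plotted against the median log2 fold change of its 50 nearest tested genes, in the 8 mutant populations; filled points passed an adjusted p below 0.05 and the dashed line marks equality. PBRM1 in sgKDM5D_4 (0.59 against 0.30) and TSC1 in sgKDM5C_5_sgKDM5D_2 (0.37 against -0.10) lie above the line, and TSC1 in sgKDM5C_4_sgKDM5D_4 (-0.33 against -0.34) lies on it.

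Over all drivers, 10 of 56 combinations differed from the median of their neighbours (17.9%, background 26.4%). Of these, 8 were among the 15 that differed from sgCtrl, 7 of the 15 were no longer called, and 2 were called only against the neighbours (SETD2 in sgKDM5D_2 and MTOR in sgKDM5C_4_sgKDM5D_4). None passed the stricter criterion. The 7 comprised BAP1 and SETD2 in sgKDM5D_4, PBRM1, BAP1 and TSC1 in sgKDM5C_4_sgKDM5D_4, and TSC2 in sgKDM5C_4 and sgKDM5D_2. The windows of 50 genes spanned 1.09 Mb for TSC2, 4.10 to 6.68 Mb for SETD2, BAP1, TSC1, PBRM1 and MTOR, and 13.8 Mb for PIK3CA. The neighbours' median was treated as known, so neither its own error nor the spread among the neighbours is in these p-values.

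CDKN2A was not detectable at this depth. It had 1 read in each of 4 libraries (sgKDM5C_4 replicate 2, sgKDM5D_4 replicate 3, sgKDM5C_4_sgKDM5D_2 replicate 2 and sgKDM5C_4_sgKDM5D_4 replicate 2) and none in the other 23. The 4 reads of 730201836 in all amount to 0.00548 CPM (exact Poisson 95% interval 0.00149 to 0.0140, counting error only). A count of 0 allows up to 3 reads, or 0.0698 to 0.143 CPM in a single library. No comparison between populations was possible for it. The adjacent CDK inhibitor gene CDKN2B had 3 reads and the antisense transcript CDKN2B-AS1, which overlaps CDKN2A, had 2.

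Genes on both sides of CDKN2A were expressed. MTAP, the methylthioadenosine phosphorylase of the methionine salvage pathway, ends closest to CDKN2A on the side of lower coordinates (starts 0.165 Mb away) and had 635 to 1608 reads per library (mean 33.8 CPM). DMRTA1, a transcription factor of the DMRT family 0.479 Mb away on the other side, had 141 to 359 reads per library (mean 8.88 CPM). Both had reads in every library. MTAP passed in no population (log2 fold change -0.11 to 0.29), and DMRTA1 was higher in 5 (0.49 in sgKDM5C_5, 0.55 in sgKDM5D_2, 0.70 in sgKDM5D_4, 0.85 in sgKDM5C_5_sgKDM5D_2 and 0.51 in sgKDM5C_5_sgKDM5D_4, adjusted p from 4.2e-08 to 0.00023). In bulk RNA, fewer cells with a transcript and less RNA per cell cannot be told apart.

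**Figure D4:**
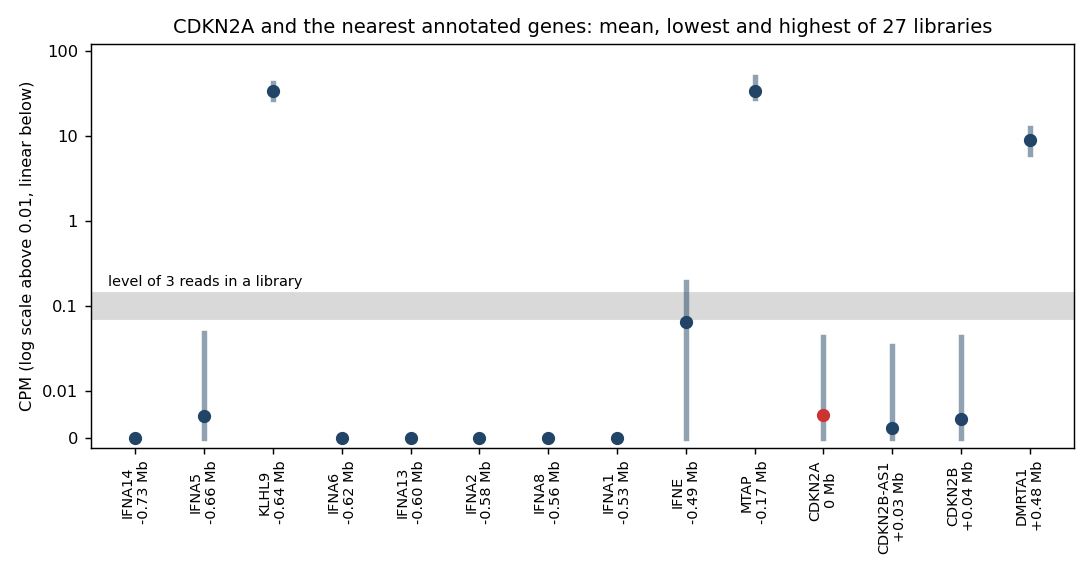
Level of CDKN2A and nearby genes on chromosome 9, in chromosomal order with the distance from CDKN2A in Mb (points, mean of 27 libraries; bars, lowest and highest library; the CPM axis is linear near 0 and logarithmic above). The grey band is the level of 3 reads in a library; MTAP and DMRTA1 lie above it in all libraries, and CDKN2A, CDKN2B and CDKN2B-AS1 below it.

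Over the 27 libraries the 3p drivers varied together, with Pearson's r of log2 CPM of 0.82 for PBRM1 and BAP1, 0.73 for PBRM1 and SETD2 and 0.77 for BAP1 and SETD2. All other pairs of drivers had r between -0.50 (TSC1 and PIK3CA) and 0.37 (SETD2 and TSC1). By rank the gap was smaller: Spearman's rho was 0.71, 0.59 and 0.63 for the 3p pairs in the same order, and 0.53 for SETD2 and TSC1. These libraries come from 9 populations and share depth and the 4 libraries that stood apart, so r is given as a description. Among 10750 genes with a mean log2 CPM over 2, those most like PBRM1 were THUMPD3, CTNNB1 (beta-catenin) and ABHD5 (r = 0.94 each), all on chromosome 3 at 43.2, 11.3 and 8.85 Mb from it. Among those most like SETD2 were RBM5 (r = 0.90, 3.07 Mb), also on chromosome 3, and RIN3 on chromosome 14 (r = 0.89). BAP1 was most like PAF1, POLD2 and EIF2B2 (r = 0.96 each), on chromosomes 19, 7 and 14. For TSC1 they were SASH1, DVL3 and MKNK2 (r = 0.89 to 0.93), for TSC2 they were TCIRG1, TENM4 and ATG16L2, all on chromosome 11 (0.85 to 0.87), and for MTOR CIAPIN1, FBXO31 and ITFG2 (0.85 to 0.86). PIK3CA was most like QSER1, TM9SF3 and FEM1C (r = 0.93, 0.90 and 0.90), which fell to 0.87, 0.80 and 0.84 without the 4 libraries listed last.

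The partners of the drivers were described from 6 lists of 109 genes, 103 of them tested. In sgKDM5D_4, 62 of the 103 changed (60.2%, background 47.6%), 23 higher and 39 lower. In sgKDM5C_5_sgKDM5D_2 the share was 50.5% (19 higher, 33 lower; background 44.5%), in sgKDM5C_4_sgKDM5D_4 41.7% (background 35.7%) and in sgKDM5C_4 30.1% (background 24%). sgKDM5C_5 (22.3%), sgKDM5D_2 (18.4%), sgKDM5C_4_sgKDM5D_2 (24.3%) and sgKDM5C_5_sgKDM5D_4 (30.1%) were within 4 percentage points of theirs. For the single lists below, 24.4% of all tested genes were higher and 23.2% lower in sgKDM5D_4. All backgrounds, here and below, cover the 17016 tested genes, including genes with as few as 120 reads over the series. They were not matched to the lists for expression level, so whether a share above them is particular to the partners was not tested. Partner genes are given against sgCtrl only, not against their chromosomal neighbours. Those named with a count of populations were mostly picked as the most often called of their list, higher or lower. How many of all tested genes were called in as many populations was not tested, and every comparison shares the sgCtrl libraries.

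Partners of PBRM1 in the SWI/SNF complexes moved in both directions. Of 17 tested, 4 were higher and 6 lower in sgKDM5D_4 (median log2 fold change -0.12). ARID1B, a DNA-binding subunit of the BAF form, was higher in 7 populations (log2 fold changes 0.04 to 0.64 over all 8) and BCL7B, an accessory subunit, lower in 5 (down to -0.69). Of 15 partners of BAP1 and components of the H2A ubiquitin ligase, 3 were higher and 8 lower in sgKDM5D_4 (median -0.19). OGT, the O-GlcNAc transferase that binds the BAP1 complex, was higher in 6 populations (up to 1.05), and the forkhead protein FOXK2, another BAP1 partner, lower in 7 (-0.50 to -0.16 over all 8). FOXK1 of the same list went the other way, higher in 6 (0.08 to 0.53 over all 8). Of 15 writers, erasers and readers of H3K36 methylation, the mark set by SETD2, 4 were higher and 3 lower in sgKDM5D_4 (median 0.12). The DNA methyltransferase DNMT3B, which binds this mark, was higher in 6 populations (up to 1.41 in sgKDM5C_5_sgKDM5D_2), and PSIP1 (LEDGF), another reader, was lower in 6.

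Of 27 genes of the TSC and mTOR complexes and their lysosomal regulators, 5 were higher and 5 lower in sgKDM5D_4 (median -0.06). The Rag GTPase RRAGA was higher in 7 populations (0.16 to 0.54 over all 8) and the Ragulator subunit LAMTOR4 lower in 7 (-0.56 to -0.11 over all 8). Of 15 genes of the PI3-kinase and AKT pathway, 7 were higher and 5 lower in sgKDM5D_4 (median 0.11). The p110-delta gene PIK3CD was higher in 6 populations (0.10 to 0.79 over all 8), and the regulatory subunit PIK3R3 was lower in 3 and higher in 2.

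Most genes of the list drawn up for CDKN2A were lower in sgKDM5D_4. The list held genes of the cyclin D, CDK and RB pathway, on which the CDKN2A product p16 acts, and also MDM2 and MDM4. MDM2 had its lowest value in sgKDM5D_4 (-0.53), and MDM4 was above 0 in all 8 populations (lowest 0.14). Of 14 tested, none was higher and 12 were lower (23.2% of all tested genes were lower), 5 of them by the stricter criterion (background 7.44%), with a median of -0.54 against -0.00 for all tested genes. CDK4, the kinase inhibited by p16, was lower in 7 populations (-0.64 to -0.03 over all 8) and fell by 0.58 on the log2 scale in sgKDM5D_4 (adjusted p = 8e-07). The CDK inhibitor CDKN1A was higher in 6 populations, up to 1.19 in sgKDM5C_5_sgKDM5D_2, and lower in sgKDM5D_4 (-0.37). Named after their values were seen, E2F1 (-0.85, adjusted p = 3.4e-10), RBL2 (-0.85, adjusted p = 1e-09), CDKN2D (-0.80, adjusted p = 4.8e-06) and CDKN1B (-0.62, adjusted p = 1.1e-05) were 4 of the 5 that passed the stricter criterion in sgKDM5D_4. RB1, also named after its values were seen, was at -0.99 in sgKDM5D_4, a larger fall than any of these and its lowest over all 8 populations. E2F1 is an S-phase transcription factor, RBL2 the pocket protein p130, and CDKN2D and CDKN1B the inhibitors p19 and p27, so that genes that drive and genes that restrain the cell cycle were lower together.

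**Figure D5:**
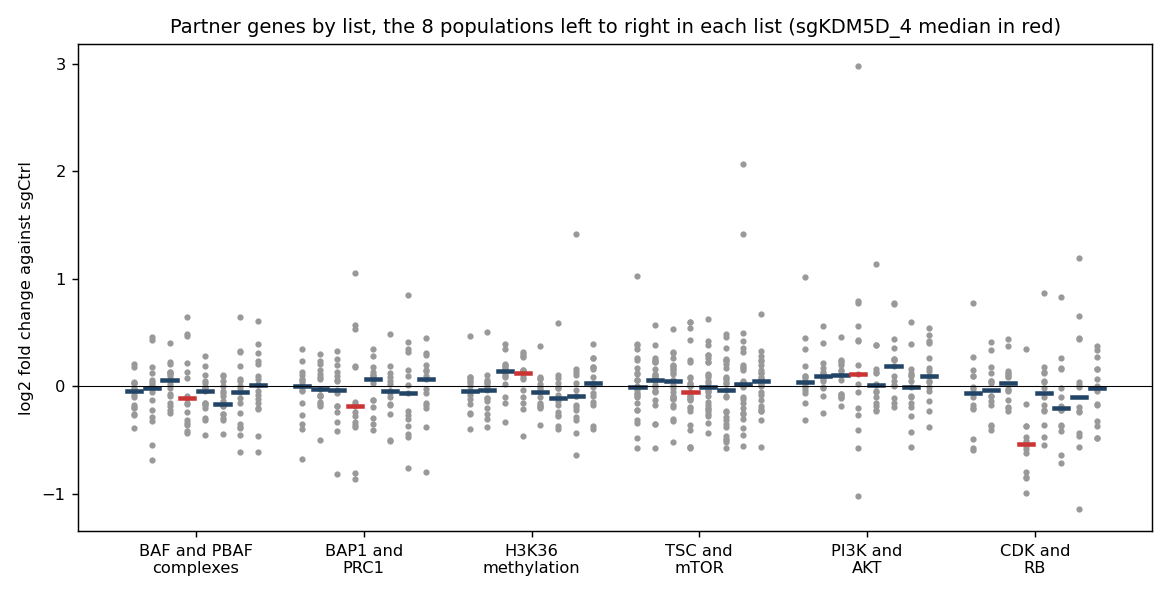
Log2 fold change against sgCtrl of each tested partner gene in 6 lists (points, 8 mutant populations per list; dashes, medians; sgKDM5D_4 in red). The list of cyclin D, CDK and RB pathway genes with MDM2 and MDM4 has a median of -0.54 in sgKDM5D_4. The medians of the other lists in that population lie between -0.19 and 0.12.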

How the data were processed

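Strand-specific paired-end RNA-seq libraries of 9 populations of 786-O cells were used as deposited, as raw counts of reads per Ensembl gene identifier. Per the submitters' processing notes, the authors trimmed with Trimmomatic 0.38 and aligned with STAR 2.5.2b to GRCh37. The counter, its strand setting and the annotation release are not given in the sources used here. Library groups were taken from the sample titles. Genes with at least 120 reads over the 27 libraries were kept (17016), TMM factors were computed, and edgeR 4.0.16 (R 4.3.3) fitted 1 mean per population (common biological coefficient of variation 0.0973). P-values are two-sided, from its quasi-likelihood test, adjusted by Benjamini and Hochberg's method across the tested genes, and called at 0.05, or at 0.001 with a change over 1.5-fold, as in the study. CPM used TMM-scaled totals. Depth of 20172482 to 43383929 reads sets the precision, and counting intervals cover counting error only. Positions came from GENCODE on GRCh37, which placed 16527 tested genes. For the comparison with neighbours, the median log2 fold change of the 50 nearest tested genes, 25 per side where possible, was added to the offsets. The named genes were the drivers, the 2 nearest tested genes on each side, the 10 nearest protein-coding genes on each side of CDKN2A, the 3 most correlated genes, the list genes called in most populations in each direction, and the targeted genes; values were printed for those a result turned on, and some are not reported here. The drivers and lists were chosen with earlier results of these data known. Alternatives were DESeq2 1.42.0, size factors by RLE, other filters, fits of 2 populations, other neighbour windows, a replicate block and omission of each library. The code was tested on simulated data. Chi-square per degree of freedom between libraries of a population was 3.62 to 31.1, so none was a duplicate.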

Additional observations from a re-analysis of the deposited data

Results flagged for a closer look

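PBRM1, BAP1 and SETD2 differed between populations made with different guides against the same gene, tested by the direct contrast of sgKDM5D_2 with sgKDM5D_4. The log2 difference was -0.63 for PBRM1 (SE 0.07, adjusted p = 7.8e-08), -0.38 for BAP1 (SE 0.07, adjusted p = 4.9e-05) and -0.25 for SETD2 (SE 0.08, adjusted p = 0.0089), lower in sgKDM5D_2 in each case. The stretch of 113 other genes between SETD2 and PBRM1 had a median of -0.03 in sgKDM5D_2 and 0.34 in sgKDM5D_4 against sgCtrl. The other 2 populations with the sgKDM5D_4 guide were not higher than sgCtrl in PBRM1, which had log2 fold changes of -0.23 in sgKDM5C_4_sgKDM5D_4 and -0.00 in sgKDM5C_5_sgKDM5D_4.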

How the results depend on the processing

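In 39 alternatives, 2 of them chosen after seeing the data (a term for the 4 libraries listed last, and their joint omission), no called value changed sign. PBRM1 in sgKDM5D_4, the only combination past the stricter criterion, kept an adjusted p below 0.05 in all 35 alternatives that gave it, but stood at the fold threshold: the count of 1 became 0 with no filter on low counts, with edgeR's own expression filter, and with a 2-fold threshold at an adjusted p of 0.05, and was 0 to 1 on omission of single libraries, 0 in 21 of 27 omissions. The 15 combinations at 0.05 became 11 to 16 on omission of single libraries, 11 without a filter and 19 with the term for the 4 libraries, and the 6 drivers that varied over populations became 6 to 7. The 10 combinations that differed from their neighbours became 7 with the 100 nearest genes, 14 with the term, and 6 to 11 on omission of single libraries (6 without sgCtrl replicate 3). The 3 guide differences became 3 to 5 (5 without sgKDM5D_4 replicate 3). With the term but not with the joint omission, BAP1 (-0.16, adjusted p = 0.023) and TSC1 (-0.19, adjusted p = 0.043) in sgKDM5C_4_sgKDM5D_2 and MTOR in sgKDM5C_5 (0.20, adjusted p = 0.012) also passed. So did TSC2 against its neighbours in sgKDM5C_5 (-0.25, adjusted p = 0.03) and the difference of TSC1 between sgKDM5C_4 and sgKDM5C_5 (-0.24, adjusted p = 0.019). All of these except the TSC1 guide difference passed on omission of some single libraries too. MTOR in sgKDM5C_5 passed in 6 of 35 alternatives, among them DESeq2. With the 20 nearest genes, MTOR was above its neighbours in sgKDM5C_4 (0.23, adjusted p = 0.025) and sgKDM5C_5_sgKDM5D_2 (0.33, adjusted p = 0.00055). PIK3CA was above its neighbours with the term or without the 4 libraries in sgKDM5C_4 (0.37 and 0.41) and sgKDM5C_4_sgKDM5D_4 (0.33 and 0.38), and only without them in sgKDM5C_5 (0.34). TSC2 in sgKDM5D_4 passed in 4 of 35 alternatives and in sgKDM5C_4 in 10 of 35.

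Replicate numbers did not pair the libraries: 31 of 108 pairs with the same number had a correlation over 0.1 (median -0.04). With the replicate number as a block, 13 combinations passed against sgCtrl, 9 against neighbours, 6 drivers varied over populations and 3 guide differences passed. The strict count with the block was 1. The cause of these changes was not tested.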
